A study of Schizosaccharomyces pombe with 4 samples.

Results

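Transfer RNA reads made up a small and uneven part of a set of CRAC libraries from the fission yeast Schizosaccharomyces pombe. CRAC cross-links RNA to protein in living cells with UV light, purifies a tagged protein and sequences the RNA fragments that come with it. The protein was Seb1 with the purification tag HTP. Seb1 is the fission yeast counterpart of the budding yeast RNA-binding protein Nrd1. It was purified from 2 cultures, described as biological replicates, of a strain in which the tagged allele Seb1-HTP::KAN had been put into the parental strain. The controls were 2 cultures of that untagged parent, likewise replicates, taken through the same purification. Both strains were of mating type h+ and carried ade6-M216 and leu1-32 together with ura4-delta_18 and his3delta_1. All 4 cultures were grown exponentially in YES medium at 30 °C and irradiated for 3 min.

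The members are reads in nuclear records that carry at least 1 gene name made of t, an amino acid letter and an anticodon in brackets, such as tW(CCA)J, and no ribosomal DNA (RDN) name. They numbered 2202 of the 549604 reads that named any feature in the 4 libraries together. They were placed on 237 genes, which fell into 41 anticodon groups and 20 amino acid letters. The gene names and chromosomes in the records are those of the budding yeast Saccharomyces cerevisiae, whereas the labels give the fission yeast build ASM294v2. Each read is therefore described as the S. cerevisiae tRNA gene it was placed on. The records hold positions and differences but no bases. Whether a read came from an S. pombe tRNA, and from which, therefore cannot be read from them. A group is written as letter and anticodon, W(CCA) for tryptophan.

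Transfer RNAs carry amino acids to the ribosome, where the anticodon in the middle of the folded molecule pairs with the codon. They are made by RNA polymerase III as longer precursors whose ends are trimmed, some of which also lose an intron next to the anticodon. A CCA tail that yeast genes do not usually encode is then added to the 3′ end, and the amino acid is attached to it. They are among the most abundant and most modified RNAs of the cell.

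Sequences of the S. pombe counterparts, matched by anticodon alone, are shown for the groups whose read ends or lengths are described below. They are S. pombe genes from RefSeq in build ASM294v3, read 5′ to 3′, with the anticodon in capitals. W(CCA) had the most reads, E(CUC) and D(GUC) had recurrent differences at the 3′ end, and R(ACG) had few.
tRNA-Trp, chrI:3559754-3559826, minus strand: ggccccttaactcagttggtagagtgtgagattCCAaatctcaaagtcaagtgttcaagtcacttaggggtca
tRNA-Glu, chrI:3765434-3765505, minus strand: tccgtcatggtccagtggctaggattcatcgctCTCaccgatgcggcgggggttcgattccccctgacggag
tRNA-Asp, chrI:4532857-4532927, plus strand: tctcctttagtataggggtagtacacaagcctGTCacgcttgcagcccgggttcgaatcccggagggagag
tRNA-Arg, chrI:3736520-3736592, plus strand: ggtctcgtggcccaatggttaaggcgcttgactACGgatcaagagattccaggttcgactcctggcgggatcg
The tRNA-Trp gene is 73 nt long, as is its transcript, and all 3 S. pombe tRNA-Trp genes have this sequence. None of the 4 genes printed ends in cca, and of the 171 nuclear tRNA genes that RefSeq lists for S. pombe, 20 do.

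The libraries differed widely in depth. The 2 Seb1-HTP libraries had 268030 and 231656 named reads, and the 2 untagged controls had 4579 and 45339. Only 2 libraries stand in each group, and an exact permutation test of 2 against 2 cannot give a p below 0.333. Intervals are 95% Wilson intervals and cover counting error only, since PCR copies are not independent molecules.

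The tRNA share did not separate the Seb1-HTP libraries from the untagged controls. There were 91 tRNA reads in the first Seb1-HTP library and 1954 in the second, against 19 and 138 in the untagged controls. As a share of named reads this was 0.0340% (0.0277 to 0.0417) in Seb1-HTP 1 and 0.843% (0.807 to 0.882) in Seb1-HTP 2. The controls had 0.415% (0.266 to 0.647) and 0.304% (0.258 to 0.359). The lowest and the highest share of the 4 libraries were thus both in Seb1-HTP, with both controls between them and no overlap of the Seb1-HTP intervals with those of the controls. The mean was 0.439% ± 0.572 in Seb1-HTP and 0.360% ± 0.0782 in the controls (SD, n = 2 each; exact two-sided permutation p = 1).

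**Figure D1:**
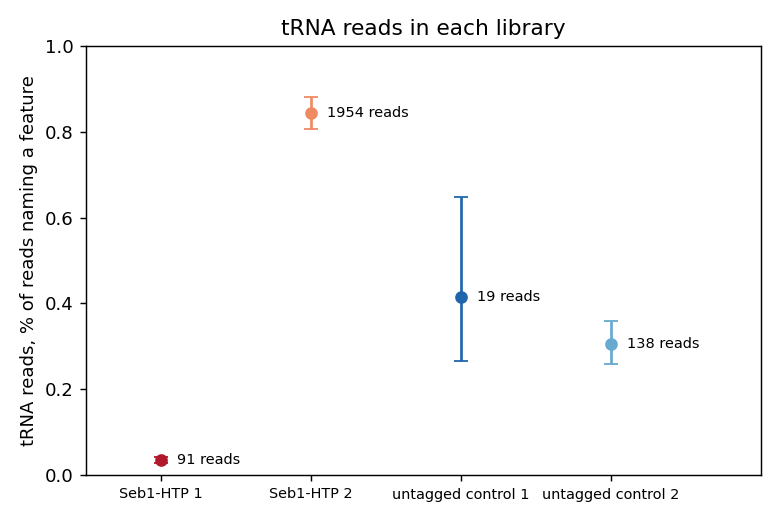
Share of reads naming any feature that were tRNA reads (vertical axis, %), 1 point per library, with 95% Wilson intervals as bars and the tRNA reads written beside each point. The Seb1-HTP libraries lie at 0.0340% and 0.843%, below and above the controls at 0.415% and 0.304%.

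The order of the libraries depended on what the tRNA reads were divided by. Most named reads were ribosomal RNA, and of the named reads without an RDN name tRNA made up 0.205% and 3.67% in Seb1-HTP, against 4.07% and 6.24% in the controls. On this denominator both Seb1-HTP libraries lay below both controls (exact permutation p = 0.333). Counted as distinct fragments, each position and strand taken once, the tRNA share of all named fragments was 0.407% and 4.16% in Seb1-HTP and 1.86% and 3.02% in the controls. The number of distinct tRNA fragments was 64 and 1579 in Seb1-HTP and 18 and 112 in the controls. A difference in tRNA bound to the purified protein and a difference in how much of each purification was background cannot be told apart from such shares.

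The spread over anticodons followed the number of tRNA reads. In Seb1-HTP 20 and 41 of the 41 groups had reads, and in the controls 12 and 24. All 20 groups seen in Seb1-HTP 1 were also seen in Seb1-HTP 2, which had every group. The controls shared 8 groups, while 4 were seen only in the first and 16 only in the second. A tRNA group with no read still allows a share of named reads of up to 0.00112% in Seb1-HTP 1 and 0.00130% in Seb1-HTP 2, against up to 0.0655% and 0.00662% in the controls (3 reads). Absence from the first control, which held 19 tRNA reads, therefore says little.

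Each library was led by a different mixture. I(UAU), an isoleucine tRNA, was first in Seb1-HTP 1 with 23.1% of its tRNA reads (15.6 to 32.7). W(CCA) was first in Seb1-HTP 2 with 29.4% (27.4 to 31.5) and in untagged control 1 with 36.8% (19.1 to 59.0). E(CUC), a glutamic acid tRNA, was first in untagged control 2 with 18.1% (12.6 to 25.4). The 3 largest groups held 51.6% and 44.6% of the tRNA reads in Seb1-HTP, against 52.6% and 42.0% in the controls.

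**Figure D2:**
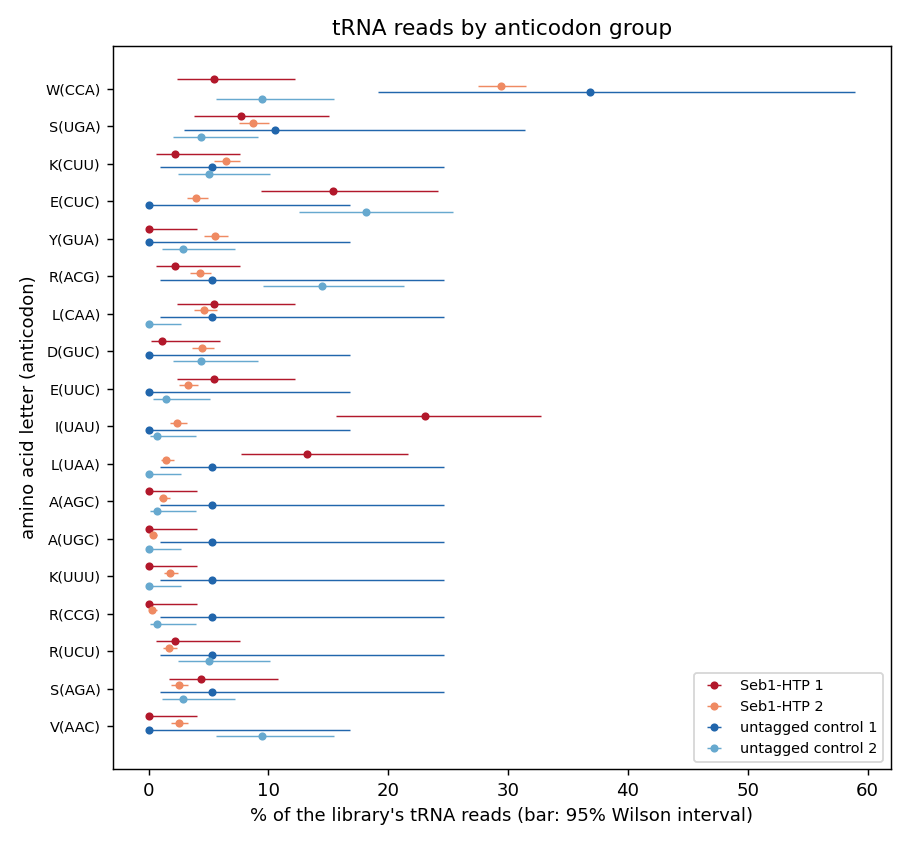
Share of each library's tRNA reads (horizontal axis, %) in each of the 18 anticodon groups chosen by read number, with 1 point per library and bars for 95% Wilson intervals. I(UAU) and L(UAA) stand out in Seb1-HTP 1, W(CCA) in Seb1-HTP 2 and untagged control 1, and E(CUC) in Seb1-HTP 1 and untagged control 2.

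The ranking of the groups was only partly shared between libraries. Over the 41 groups, Spearman's rho of the reads was 0.57 between the Seb1-HTP libraries and 0.22 between the controls. Across the strains it ran between 0.30 for Seb1-HTP 1 with untagged control 2 and 0.64 for Seb1-HTP 2 with untagged control 2, the 2 libraries with the most tRNA reads. Pearson's r was highest, at 0.91, between Seb1-HTP 2 and untagged control 1, and was 0.52 over the 40 groups without W(CCA). These values describe groups that share libraries and gene copy numbers.

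W(CCA), the tryptophan tRNA, was the largest group. Seb1-HTP held 5 and 575 of its reads and the untagged controls 7 and 13. Its share of named reads was 0.00187% and 0.248% in Seb1-HTP, against 0.153% and 0.0287% in the controls. The second Seb1-HTP library was the highest of the 4 and the first the lowest. In the edgeR quasi-likelihood test the log2 fold change was 0.51 (SE 2.50, adjusted p = 0.887). Each edgeR SE, here and below, is the size of the change divided by the square root of the test's F value. It therefore restates the test and is not separate evidence.

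S(UGA), a serine tRNA, had 7 and 170 reads in Seb1-HTP and 2 and 6 in the controls. Its log2 fold change was 0.55 (SE 2.66, adjusted p = 0.887). K(CUU), a lysine tRNA, had 2 and 126 reads in Seb1-HTP and 1 and 7 in the controls, and its log2 fold change was 0.62 (SE 2.67, adjusted p = 0.875). In both groups the first Seb1-HTP library had a smaller share of named reads than either control. For S(UGA) these shares were 0.00261% and 0.0734% in Seb1-HTP, against 0.0437% and 0.0132% in the controls.

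E(CUC) had 14 and 78 reads in Seb1-HTP and 0 and 25 in the controls. Its log2 fold change was -0.70 (SE 2.52, adjusted p = 0.845). Y(GUA), a tyrosine tRNA, had 0 and 108 reads in Seb1-HTP and 0 and 4 in the controls, and its log2 fold change was 1.87 (SE 2.78, adjusted p = 0.600). R(ACG), an arginine tRNA, had 2 and 83 reads in Seb1-HTP and 1 and 20 in the controls, and its log2 fold change was -0.91 (SE 2.56, adjusted p = 0.805). In each of these groups the SE derived in this way was larger than the change, which restates the weak test result.

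The next groups by total reads were no more even. L(CAA), for leucine, had 5 and 91 reads in Seb1-HTP and 1 and 0 in the controls. D(GUC), for aspartic acid, had 1 and 87 in Seb1-HTP and 0 and 6 in the controls. E(UUC) had 5 and 64 in Seb1-HTP and 0 and 2 in the controls. In each of the 3 the second Seb1-HTP library held most of the reads.

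I(UAU) and L(UAA), like E(CUC), held a larger part of the tRNA reads in the first Seb1-HTP library than in the second. I(UAU) had 21 and 47 reads in Seb1-HTP and 0 and 1 in the controls. L(UAA) had 12 and 29 in Seb1-HTP and 1 and 0 in the controls. The 2 libraries of Seb1-HTP differed less here than for W(CCA), and the reads of both groups were unusually short, as described below.

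V(AAC), for valine, had 0 and 49 reads in Seb1-HTP and 0 and 13 in the controls. All 13 reads of untagged control 2 were 52 nt long, and they were placed on 9 different genes with 1 or 2 reads each. Copies of a tRNA gene are near-identical, so the split of reads among them is uncertain and groups, not genes, were the main unit tested.

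No tRNA group passed the test in either direction. The test took in 554 features whose reads summed to 10 or more over all libraries. Of these edgeR called 0% higher and 0% lower in Seb1-HTP at an adjusted p under 0.05, and 4 had an unadjusted p under 0.05. The 554 features included 31 of the 41 tRNA groups, none with an unadjusted p under 0.05, and the other 10 had too few reads. DESeq2 called 0.181% of the features higher, none of them a tRNA group, and 21 had an unadjusted p under 0.05. The adjusted p-values of the tRNA groups ran between 0.512 and 0.986 in edgeR. These p-values set the difference between the strains against a spread between libraries that was estimated with the help of all tested features. With 2 libraries a group, a p above the threshold does not show that the groups act alike.

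The median log2 fold change of the tRNA groups was 0.52, against 4.94 over all 554 features, and 21 of the 31 were above 0. Only 6 of the 31 were at 0 in both controls, whereas 430 of the 554 features were, and fitted fold changes against 0 depend on the prior count. With RDN reads left out of the library totals the tRNA median was -1.02, against 4.71 over all features.

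Few tRNA groups had raw shares that separated the libraries by strain. Of the 31 groups tested, 3 had a higher share of named reads in both Seb1-HTP libraries than in both controls, where 62.1% of all features did so. They were I(UAU), C(GCA) for cysteine, with 1 and 19 reads in Seb1-HTP and 0 in both controls, and M(CAU) for methionine, with 3 and 12 in Seb1-HTP and 0 in both controls. The last 2 are named because they separated, and with 0 control reads they passed the filter through Seb1-HTP alone. A 0 in untagged control 1 still allows up to 0.0655%, above the Seb1-HTP shares of all 3 groups. These counts therefore do not show that their shares differ by strain. The 62.1% is subject to the same filter, as 430 of the 554 features were at 0 in both controls, against 6 of the 31 tRNA groups. A feature at 0 in both controls separates once it has a read in both Seb1-HTP libraries, so the 2 sets are not alike. Only R(UCU), for arginine, was lower in both Seb1-HTP libraries, with 2 and 33 reads in Seb1-HTP and 1 and 7 in the controls, and 0.361% of all features were. Its shares were 0.000746% and 0.0142% in Seb1-HTP and 0.0218% and 0.0154% in the controls. Over all 41 groups 6 were higher, where 25.7% of all features with a read were, and R(UCU) was again the only one lower, where 0.174% were. Of the 6 higher groups only I(UAU) had a control read.

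By amino acid, the test again called none of the 20 letters. Serine, with 12 and 292 reads in Seb1-HTP and 3 and 14 in the controls, was the largest letter after tryptophan. Arginine made up 4.40% (1.72 to 10.8) and 7.11% (6.06 to 8.34) of tRNA reads in Seb1-HTP. In the controls it made up 15.8% (5.52 to 37.6), from 3 reads, and 20.3% (14.4 to 27.8). Its log2 fold change in the edgeR test was -1.04 (SE 2.57, adjusted p = 0.763). Glutamic acid made up 20.9% and 7.27% in Seb1-HTP, against 0% and 19.6% in the controls. Between the number of S. pombe genes per amino acid and the reads, Spearman's rho over the 20 letters was 0.32 and 0.28 in Seb1-HTP and 0.45 and 0.27 in the controls. Without tryptophan it was 0.43 and 0.48 in Seb1-HTP and 0.73 and 0.37 in the controls. Tryptophan, with 3 S. pombe genes, was among the letters with fewest genes.

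Other genes linked to tRNA were compared as lists. Their names too are those of the S. cerevisiae genes on which reads were placed, and which RNA gave the reads is not known. Of 5 other RNA polymerase III transcripts, all had reads, and together they had 13 and 378 in Seb1-HTP and 3 and 14 in the controls. RDN5, the 5S ribosomal RNA, gave 11 and 315 of these in Seb1-HTP and 3 and 13 in the controls. SCR1, the RNA of the signal recognition particle, had 0 and 24 in Seb1-HTP and 0 in both controls, and SNR52, a small nucleolar RNA, had 1 and 18 in Seb1-HTP and 0 in both controls. As with tRNA, nearly all reads of the list were in the second Seb1-HTP library.

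Reads were placed on genes for tRNA enzymes in both Seb1-HTP libraries, and whether they came from mRNAs of those enzymes was not tested. Of 21 genes for tRNA processing and export, 10 had a read, with 42 and 44 reads in Seb1-HTP and 1 and 0 in the controls. TPT1, a 2′-phosphotransferase of tRNA splicing, had 34 and 21 of these in Seb1-HTP, and SEN54, a subunit of the splicing endonuclease, had 5 and 11. Of 22 cytosolic aminoacyl-tRNA synthetase genes, 16 had a read, with 94 and 67 in Seb1-HTP and 0 and 1 in the controls. KRS1, the lysyl-tRNA synthetase, had 78 and 1 in Seb1-HTP, and CDC60, the leucyl-tRNA synthetase, had 2 and 17. TPT1 and KRS1 thus gave most of the Seb1-HTP 1 reads of their lists. At most 5, 2 and 4 names of the 3 lists had the 10 reads needed for the test, and edgeR called none of them.

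Reads on the genes with the most reads came almost wholly from a single strand. For 38 genes with at least 10 reads in Seb1-HTP 2 the main strand was set there. In that library 1320 of 1323 reads lay on it. In the other libraries 54 of 56 reads of Seb1-HTP 1, 12 of 12 of untagged control 1 and 76 of 76 of untagged control 2 lay on the same strand.

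Read lengths set the first Seb1-HTP library apart. Its tRNA reads averaged 31.3 nt and those of Seb1-HTP 2 averaged 44.4 nt, against 39.9 and 44.0 nt in the controls. The mean was 37.8 ± 9.23 nt in Seb1-HTP and 42.0 ± 2.88 nt in the controls (SD, n = 2 each; exact permutation p = 1). Reads of 17 to 19 nt made up 44.0% (34.2 to 54.2) of tRNA reads in Seb1-HTP 1 and 4.86% (3.99 to 5.91) in Seb1-HTP 2, against 10.5% (2.94 to 31.4) and 5.80% (2.97 to 11.0) in the controls. Among the other named reads of Seb1-HTP 1 only 1.405% were so short.

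**Figure D3:**
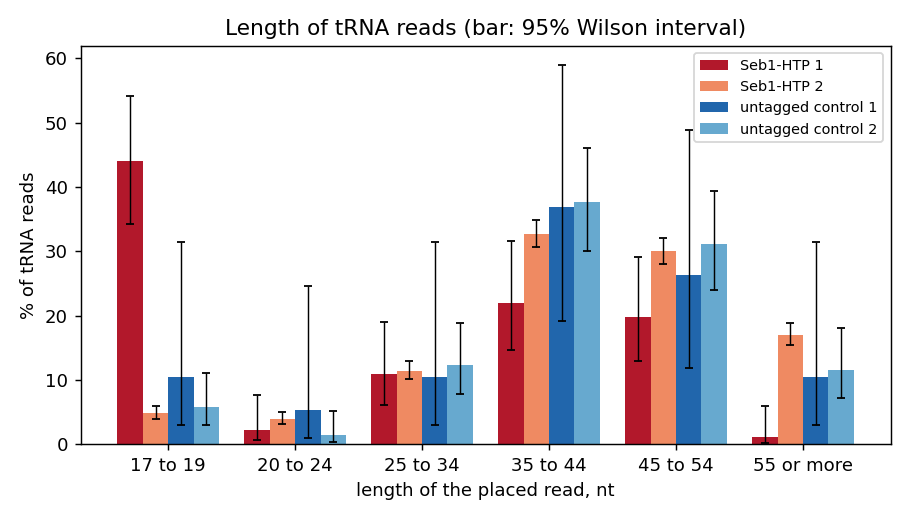
Length of the placed tRNA reads in nt (horizontal axis) against the share of each library's tRNA reads (vertical axis, %), with bars for the 4 libraries and lines for 95% Wilson intervals. Reads of 17 to 19 nt are 44.0% of Seb1-HTP 1, and the other 3 libraries lie mainly between 35 and 54 nt.

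In Seb1-HTP 1 most of these short reads lay on I(UAU) and L(UAA) and repeated a few intervals. Of the I(UAU) reads, 20 of 21 in Seb1-HTP 1 and 26 of 47 in Seb1-HTP 2 were 17 to 19 nt long. A single substitution was carried by 19 of the 20 and by all 26. On tI(UAU)D, 19 nt at IV 884361 to 884379 on the plus strand held 9 reads in Seb1-HTP 1, and position 884365 was substituted in 10 of 10 reads there and in 12 of 12 in Seb1-HTP 2. On tI(UAU)L, 19 nt at XII 605414 to 605432 on the minus strand held 12 reads in Seb1-HTP 2, and position 605428 was substituted in 9 of 9 reads of Seb1-HTP 1 and in 14 of 15 of Seb1-HTP 2.

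L(UAA) showed the same form. Of its reads, 10 of 12 in Seb1-HTP 1 and 14 of 29 in Seb1-HTP 2 were 17 to 19 nt long, and its only control read, in untagged control 1, was 19 nt long. The interval with the most reads in Seb1-HTP 1 was 17 nt on tL(UAA)N, XIV 726171 to 726187, with 5 reads. The only I(UAU) read of the controls was 40 nt long and had no difference. Whether such short reads come from tRNA was not tested, and the high ranks of I(UAU) and L(UAA) in Seb1-HTP 1 rest on them.

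Some longer tRNA reads matched the S. cerevisiae sequence in full. Among reads of at least 35 nt, 0 of 39 tRNA reads in Seb1-HTP 1 and 284 of 1558 in Seb1-HTP 2 had no difference, against 2 of 14 and 23 of 111 in the controls. As shares this was 0% (0 to 8.97) and 18.2% (16.4 to 20.2) in Seb1-HTP, and 14.3% (4.01 to 39.9) and 20.7% (14.2 to 29.2) in the controls. Of the other named reads of that length, 4.42% and 6.39% in Seb1-HTP and 4.12% and 4.02% in the controls matched without a difference. Of those without an RDN name, 1.45% and 7.75% in Seb1-HTP and 18.8% and 11.02% in the controls did. The tRNA share was above both kinds of other read beyond its interval in Seb1-HTP 2 and in untagged control 2, and not in the remaining libraries. The longest tRNA read without a difference was 82 nt in both Seb1-HTP 2 and untagged control 2.

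Most tRNA reads differed from the sequence they were placed on. A substitution or deletion was present in 94.5% (87.8 to 97.6) of tRNA reads in Seb1-HTP 1 and 79.2% (77.4 to 81.0) in Seb1-HTP 2, against 78.9% (56.7 to 91.5) and 73.2% (65.2 to 79.9) in the controls. Both Seb1-HTP values lay above both controls, but that of Seb1-HTP 2 by less than the intervals. The mean was 86.9% ± 10.8 in Seb1-HTP and 76.1% ± 4.07 in the controls (SD, n = 2 each; exact permutation p = 0.333, the smallest this design allows). Among reads of at least 25 nt the values were 100% and 79.4% in Seb1-HTP, against 87.5% and 75.0% in the controls, so that the groups overlapped.

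Substitutions gathered at the 3′ end of tRNA reads. The other named reads set beside them mostly carried an RDN name, and a base-by-base count without those was not made. In Seb1-HTP 2, bases 2, 3 and 4 from the 3′ end were substituted in 13.6%, 14.7% and 11.8% of tRNA reads of at least 25 nt, and in 6.02%, 5.29% and 7.30% of other named reads. Base 5 was substituted in 3.37% of the tRNA reads. In untagged control 2 the same 3 bases were substituted in 6.25%, 8.59% and 3.91% of tRNA reads and in 3.55%, 3.03% and 2.28% of others. The last base was substituted often in both kinds of read, in 65.3% and 37.7% of tRNA reads in Seb1-HTP and 43.8% and 28.9% in the controls, and in 41.2% and 35.5% of other named reads in Seb1-HTP and 45.8% and 58.5% in the controls.

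**Figure D4:**
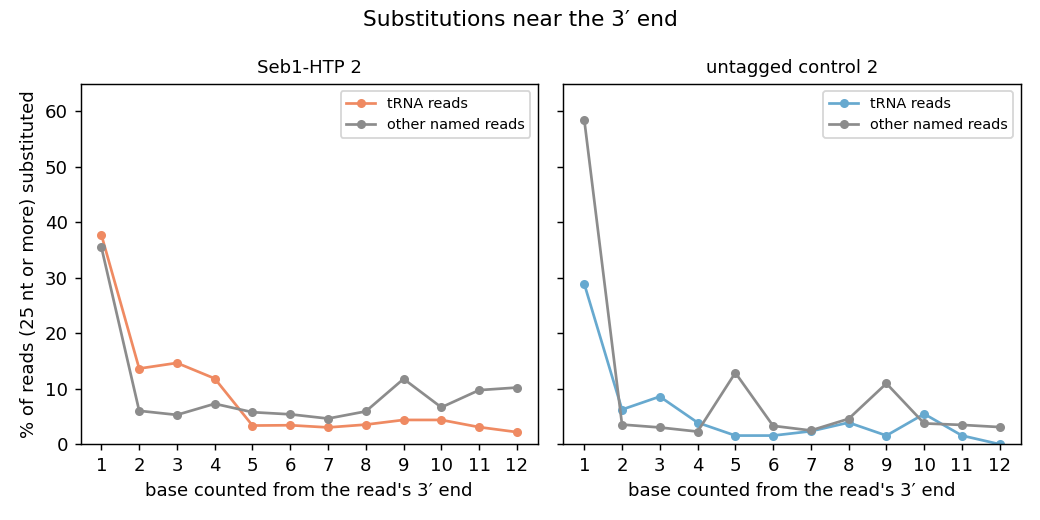
Share of reads of at least 25 nt (vertical axis, %) substituted at each base counted from the 3′ end (horizontal axis), for tRNA reads (coloured) and other named reads (grey), in the library of each strain with the most tRNA reads. Most of the other named reads carried an RDN name. In Seb1-HTP 2 the tRNA line lies above the grey line at bases 2 to 4 and below it at bases 5 to 12.

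Reads with at least 2 substitutions in their last 4 bases were counted in each library. They were 8 of 91 tRNA reads, 8.79% (4.52 to 16.4), in Seb1-HTP 1 and 349 of 1954, 17.9% (16.2 to 19.6), in Seb1-HTP 2. The controls had 7 of 19, 36.8% (19.1 to 59.0), and 13 of 138, 9.42% (5.59 to 15.5). Among other named reads the shares were 9.18% and 6.60% in Seb1-HTP and 3.33% and 4.90% in the controls. Among those without an RDN name they were 3.80% and 5.27% in Seb1-HTP and 11.4% and 6.51% in the controls. The tRNA share was above both beyond its interval in Seb1-HTP 2 and in untagged control 1, and not in the remaining libraries. At the 5′ end the same count gave 1.10% and 2.10% of tRNA reads in Seb1-HTP, and 5.26% and 0.725% in the controls.

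The anticodon groups differed in this end pattern within Seb1-HTP 2. It was present in 38.8% (26.4 to 52.8) of S(AGA) reads, 38.5% (28.4 to 49.6) of E(CUC), 35.6% (26.4 to 46.1) of D(GUC) and 32.5% (24.98 to 41.1) of K(CUU). It was present in 9.91% (7.73 to 12.6) of W(CCA), 7.23% (3.36 to 14.9) of R(ACG) and 6.48% (3.17 to 12.8) of Y(GUA), and in 0 of 35 reads of K(UUU). These groups were picked to show the range after the values were seen. Between them lay groups such as S(UGA), with 21.8% (16.2 to 28.6), and L(CAA), with 23.1% (15.6 to 32.7). R(CCU), for arginine, had the pattern in 11 of 17 reads, 64.7% (41.3 to 82.7).

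The substituted positions repeated from read to read. The last covered base is here the one farthest 3′ among the reads of Seb1-HTP 2 on the gene's main strand. On tD(GUC)G1, at chromosome VII, positions 531682 and 531683 were substituted in 25 and 26 of 27 reads of Seb1-HTP 2, and 531685, the last covered base, in 20 of 25. On tE(CUC)I, at chromosome IX, positions 197664 and 197665 were substituted in 28 of 30 and 27 of 29 reads of Seb1-HTP 2 and in 2 of 2 reads of untagged control 2. The last covered base there on the plus strand, 197667, was substituted in 20 of 27 reads of Seb1-HTP 2. On tK(CUU)M, at chromosome XIII, position 480620 was substituted in 39 of 41 reads of Seb1-HTP 2, and in the single read covering it in Seb1-HTP 1 and in untagged control 1. In both the aspartic acid and the glutamic acid gene the recurrent positions were those 3, 2 and 0 nt before the last covered base. The S. pombe sequences printed above end without a CCA, and the bases read at these positions are not in the records.

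Some E(CUC) reads were longer, as placed, than the 72 nt of the S. pombe tRNA-Glu gene printed above. That gene does not encode the CCA tail, and deleted bases count in the placed length. Such reads therefore need not be longer than the tRNA. On tE(CUC)I the interval with the most reads in Seb1-HTP 2 was 76 nt, IX 197592 to 197667 on the plus strand, with 15 reads. In untagged control 2 it was 54 nt, 197593 to 197646, with 10 reads. The first base was within 1 nt, and this control interval stopped short of the 3′ end. The longest tE(CUC)I read of untagged control 2 was nevertheless also 76 nt, from 197592 to 197667. The 2 genes of this group, tE(CUC)I and tE(CUC)D, had 5 and 9 reads in Seb1-HTP 1, 49 and 29 in Seb1-HTP 2, and 15 and 10 in untagged control 2.

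Deletions of 2 adjacent bases were frequent in S(UGA) and E(CUC). They were present in 1 of 7 and 60 of 170 S(UGA) reads in Seb1-HTP, against 1 of 2 and 4 of 6 in the controls. In E(CUC) they were present in 0 of 14 and 28 of 78 reads in Seb1-HTP, and in 5 of 25 reads of untagged control 2. S(UGA) gave 60 and E(CUC) 28 of the 115 tRNA reads with such a deletion in Seb1-HTP 2, whereas 1 of 575 W(CCA) reads had one. Among other groups of the same amino acids, S(CGA) had one in 8 of 33 reads of Seb1-HTP 2 and in the only read of untagged control 2. In Seb1-HTP 2 S(GCU) had 1 of 40, S(AGA) 0 of 49 and E(UUC) 3 of 64, while D(GUC) had 8 of 87. The deletion was present in Seb1-HTP and in untagged libraries alike.

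The deleted bases lay at fixed places. On tS(UGA)I, IX 248899 was deleted in 30 of 60 reads of Seb1-HTP 2 and in 2 of 3 of untagged control 2. On tS(UGA)E, V 288476 was deleted in 17 of 46 reads of Seb1-HTP 2 and in the only read covering it in each control. On tE(CUC)I, IX 197626 was deleted in 17 of 42 reads of Seb1-HTP 2, in 0 of 4 of Seb1-HTP 1 and in 3 of 15 of untagged control 2. On tE(CUC)D, IV 1017245 was deleted in 11 of 27 reads of Seb1-HTP 2, in 1 of 9 of Seb1-HTP 1 and in 2 of 10 of untagged control 2. In these 4 genes the position was 39 to 41 nt before the last covered base of the gene's main strand.

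The W(CCA) reads of Seb1-HTP 2 were shared out over all 6 genes of the group. tW(CCA)P had 115 reads, tW(CCA)G1 112, tW(CCA)J 105, tW(CCA)M 98, tW(CCA)G2 74 and tW(CCA)K 71. They were 482 distinct fragments, and the interval with the most reads, 39 nt on tW(CCA)G1 at VII 287398 to 287436 on the minus strand, held only 9. Each gene was covered on 1 strand, over 109 to 124 nt. No single interval accounted for the group.

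The 6 genes were lined up at the first start that recurred, and their reads were summed. In Seb1-HTP 2, 80 reads began there, 71 began 19 nt and 28 began 39 nt downstream. At most 388 reads covered a base, 45 nt downstream, and at least 137 covered every base between 0 and 80 nt downstream. Ends were most frequent at 38 nt, with 34 reads, and at 86 and 87 nt, with 31 and 30. Of the 575 reads 143 matched without a difference, 24.9% (21.5 to 28.6), against 0 of 5 in Seb1-HTP 1, and 2 of 7 and 5 of 13 in the controls.

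**Figure D5:**
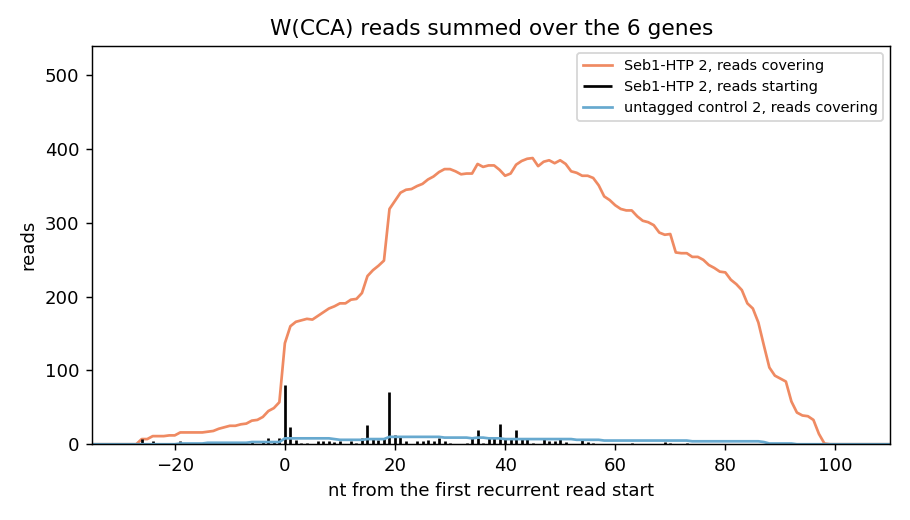
Reads covering each base of W(CCA), summed over its 6 genes (vertical axis), by distance in nt from the first recurrent read start (horizontal axis), for Seb1-HTP 2 and untagged control 2, with the read starts of Seb1-HTP 2 as black lines. Starts recur at 0, 19 and 39 nt and the coverage of Seb1-HTP 2 peaks at 388 reads.

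Some W(CCA) reads were longer than the 73 nt of the S. pombe gene. There were 0 and 38 in Seb1-HTP, the longest 95 nt, and 0 and 3 in the controls, the longest 88 nt. As that gene does not encode the CCA tail, a read slightly longer than 73 nt need not be longer than the tRNA. In Seb1-HTP 2, 3 of the 38 matched S. cerevisiae without a difference, the longest at 79 nt. The S. cerevisiae tRNA-Trp genes carry an intron, which the S. pombe gene printed above does not have in RefSeq.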

How the data were processed

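Per the file headers and the submitters' processing notes, the authors aligned reads with Novoalign 2.0.4 and wrote one table of placed reads per library with Counters 1.4.2. Its values are counts, the deposited reads per record (column 6), not normalized, and 2.12% and 4.90% of them in Seb1-HTP and 1.61% and 0.334% in the controls named no feature. The deposited tables report 3452998 and 3946246 raw reads for Seb1-HTP and 35034 and 202528 for the controls. tRNA reads were summed per anticodon, and other features by name where a record named 1 feature. Features whose reads summed to 10 or more were tested with edgeR 4.0.16 (quasi-likelihood, library size the named reads, Benjamini-Hochberg over the table, threshold 0.05) in R 4.3.3, and with DESeq2 1.42.0. Single values were compared with exact permutation tests (scipy 1.17.1). Named groups are the 10 with the most reads over the libraries and the 3 with the most in each (ties kept), and features of the lists the 3 with the most reads. The members and lists were chosen with earlier results of these data known. Mitochondrial tRNA reads (3 and 8 in Seb1-HTP, 0 in both controls) were left out.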

Additional observations from a re-analysis of the deposited data

How the results depend on the processing

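No tRNA group was called under any of the 14 alternatives (TMM, DESeq2, RDN-free totals, filters of 1 and 30 reads, genes or amino acids in place of anticodons, distinct fragments, reads of at least 25 nt, replicate block, each library left out), which gives 0 throughout, and the number called stayed 0 without each library. In the main test the SE of the log2 fold changes, derived from the F values, lay between 2.50 for W(CCA) and 5.92 for R(CCU). Even large changes could thus go uncalled, and the repeated 0 does not show that there were none. With the replicate block 5 of 31 groups and 241 of 554 features had an unadjusted p under 0.05, against 0 and 4 without it. Without Seb1-HTP replicate 1, 6 of 31 groups and 273 of 434 features did, with a smallest adjusted p of 0.0515 among the groups. Same-numbered libraries deviated together only weakly (r = 0.12 over 554 features, 0.15 over the 124 with a control read, 2 pairs). As 430 of the 554 features were at 0 in both controls, this cannot tell whether same-numbered libraries shared a preparation. The difference in tRNA share, 0.0791 percentage points (Seb1-HTP minus control), turned to -3.21 without RDN reads and to -0.155 by fragments, and ran between -0.326 and 0.484 with a library left out. The lowest value was without Seb1-HTP replicate 2. Mean length differed by -4.14 nt, and by -10.7 to 2.38 nt with a library left out, the highest without Seb1-HTP replicate 1. Differences in reads with a substitution or deletion ran between 3.15 and 18.4 points. Uncalled log2 fold changes also turned. Without RDN reads they were -0.91 for W(CCA), -1.02 for S(UGA), -1.17 for K(CUU) and -0.19 for Y(GUA). By fragments they were -0.0083 for S(UGA) and -0.031 for K(CUU), and DESeq2 gave -0.17 for K(CUU). With the replicate block they were -1.52 for W(CCA), -0.65 for S(UGA), -1.09 for K(CUU) and 0.12 for E(CUC). With a library left out they ran between -5.46 and 2.12 for W(CCA), -3.18 and 1.52 for S(UGA), -4.35 and 1.60 for K(CUU), -2.62 and 8.04 for E(CUC) and -5.34 and 0.050 for R(ACG). The cause was not tested. The 8.04 for E(CUC) was without untagged control replicate 2, and the control left had 0 E(CUC) reads, so this value depends on the prior count. W(CCA) without untagged control replicate 2 was -0.29 and S(UGA) -0.20. E(CUC) was 0.077 without Seb1-HTP replicate 1. tRNA genes with other names were already covered by the rule, so that alternative gave no value. With 19 tRNA reads in untagged control 1 and 91 in Seb1-HTP 1, depth limits what a group at 0 shows.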
